A study of Mus musculus with 6 samples.

Results

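The TRIM (tripartite motif) genes are taken here as every gene in the expression tables whose symbol is Trim followed by a number and at most 1 letter, which gave 58 of 17067 genes. RefSeq (GRCm38.p6) holds 68 genes with symbols of this form, and the other 10 were not analysed here. The values come from RNA sequencing of colon macrophages of C57BL/6 mice aged 10 weeks, isolated by cell sorting on CD45, CD11b and F4/80. All mice had colitis induced with dextran sulfate sodium (DSS), which injures the colon lining. One group was labelled Gsdmd-/- (3 samples), a knockout of the gene of gasdermin D, the protein that forms the membrane pore of pyroptosis. The other was wild type (WT, 3 samples), so DSS is shared by both groups and no untreated mice enter the comparison. The labels do not say whether mice were pooled or which part of Gsdmd was deleted.

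Most TRIM proteins have a RING finger that transfers ubiquitin, a B-box and a coiled coil through which they pair, and a variable C-terminal part that binds the target. Many are induced by interferon. In macrophages they are known for tagging viral parts and for tuning the pathways that lead from cytosolic RNA and DNA sensors to interferon, while others repress genes in the nucleus or act on the cytoskeleton.

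Depth, estimated from the steps between low values, was 19.6 M to 20.7 M fragments a library. Gsdmd was at 29.0 ± 0.612 FPKM in Gsdmd-/- and 98.1 ± 1.08 FPKM in WT samples (SD, n = 3 each), where FPKM is a level scaled to transcript length and to the fragments sequenced. Reads of the gene were thus fewer but not absent in Gsdmd-/- samples. The macrophage markers were all present: 8 of 8 listed genes were tested, with summed levels of 8570 to 8640 FPKM in Gsdmd-/- and 7700.0 to 8190 FPKM in WT samples. Most of this sum came from Lyz2 and Cd68, which were higher in Gsdmd-/- samples in the values as deposited. Gene by gene, 3 of the 8 rose and 5 fell (limma adjusted p under 0.05), with a median log2 change of -0.30. Over all tested genes 40.6% rose and 36.9% fell. Once the trend of changes with transcript length and GC content was removed, 1 rose and 7 fell (all genes 30% and 31.3%). Lyz2 and Cd68 were then lower in Gsdmd-/- samples, with log2 changes of -0.15 and -0.10. In TPM, a fixed total per library, 2 rose and 6 fell (all genes 25% and 51%), with Lyz2 at -0.10 and Cd68 at 0.11. The genes behind the sorting gate were all lower in Gsdmd-/- samples. Ptprc (CD45) was at 57.9 ± 2.50 FPKM in Gsdmd-/- and 92.4 ± 4.73 FPKM in WT. Itgam (CD11b) was at 91.3 ± 4.07 FPKM in Gsdmd-/- and 176 ± 3.24 FPKM in WT, and Adgre1 (F4/80) at 216 ± 5.67 FPKM in Gsdmd-/- and 291 ± 4.29 FPKM in WT. Markers of other cells also moved with genotype. The summed level of 10 fibroblast markers was 89.0 to 90.8 FPKM in Gsdmd-/- and 33.1 to 34.7 FPKM in WT samples. Its largest part was Bgn, at 33.0 ± 0.404 FPKM in Gsdmd-/- and 11.2 ± 0.601 FPKM in WT. The 7 fibroblast markers tested all rose, while Lum, Pdgfra and Pdgfrb stayed under 1 FPKM in every sample. Lum and Pdgfrb overlapped between the groups. For 6 smooth muscle markers the sum was 11.7 to 12.9 FPKM in Gsdmd-/- and 2.15 to 4.10 FPKM in WT samples. Among these, Myh11, Cnn1 and Des stayed under 0.1 FPKM in every sample. Summed T cell markers were at 9.51 to 10.5 FPKM in Gsdmd-/- and 5.59 to 6.27 FPKM in WT samples (Cd3e under 0.1 FPKM throughout). Only Lck and Cd4 among them were high enough to be tested. Neutrophil markers were at 40.7 to 44.0 FPKM in Gsdmd-/- and 31.0 to 35.2 FPKM in WT samples (Ly6g and Mpo under 0.1 FPKM). Most of that sum was Csf3r, at 37.5 ± 0.880 FPKM in Gsdmd-/- and 29.6 ± 1.56 FPKM in WT. Epithelial markers were at 2.12 to 2.23 FPKM in Gsdmd-/- and 3.09 to 3.53 FPKM in WT samples. That sum was mostly Cdh1, at 1.88 ± 0.0954 FPKM in Gsdmd-/- and 3.15 ± 0.237 FPKM in WT, the only one of them tested. Krt8, Muc2 and Vil1 stayed under 0.1 FPKM in every sample. B cell markers were at 0.380 to 0.800 FPKM in Gsdmd-/- and 0.240 to 0.440 FPKM in WT samples. Their part in the TRIM values was not tested. In such bulk samples, fewer cells of a type and less RNA per cell cannot be told apart.

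Of the 58 TRIM genes, 33 reached 1 FPKM in 3 or more of the 6 samples and were tested, 30 of them with at least 1 FPKM in all 6 samples and 3 (Trim23, Trim33 and Trim36) in 5. The family was dominated by a few highly expressed genes. The 10 genes with a mean of at least 20 FPKM held 84.6% to 85.0% of the summed TRIM level in Gsdmd-/- samples and 86.3% to 86.5% in WT samples. In falling order of their mean they were Trim30a, Trim21, Trim14, Trim25, Trim30d, Trim26, Trim12a, Trim34a, Trim28 and Trim12c. The summed level of all 58 genes was 829 to 859 FPKM in Gsdmd-/- samples and 976 to 994 FPKM in WT samples. Trim30a alone held 16.8% to 17.8% of this sum in Gsdmd-/- samples, against 21.5% to 22.1% in WT samples.

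**Figure D1:**
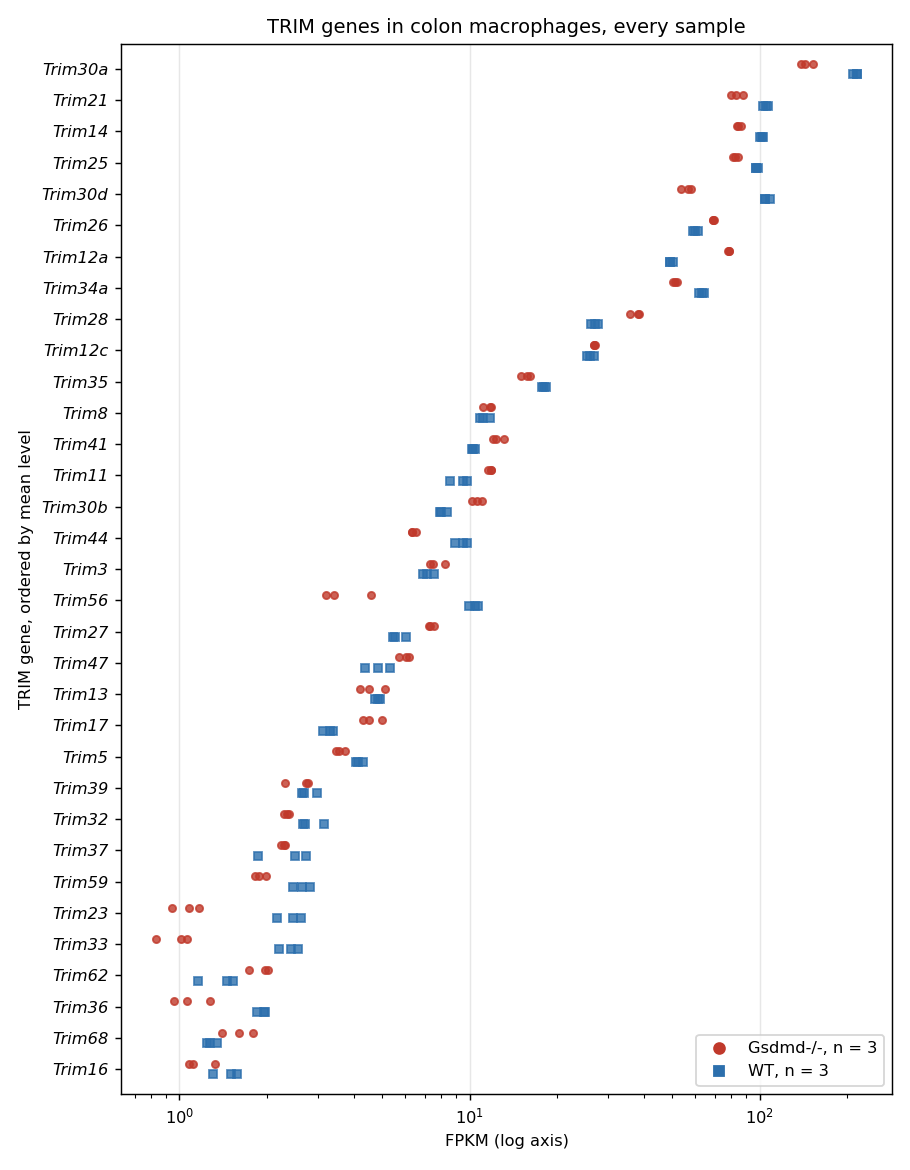
Level of each of the 33 tested TRIM genes in FPKM (log axis), with 1 point per sample, red circles for the 3 Gsdmd-/- and blue squares for the 3 WT samples, ordered by mean level. Trim30a lies highest, with Gsdmd-/- samples at 139 to 152 and WT samples at 210.0 to 217 FPKM, and Trim56, Trim33 and Trim23 show the widest gaps between the groups.

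Gsdmd-/- macrophages showed a rise of 11 and a fall of 15 of these 33 TRIM genes, where "rose" and "fell" mean an adjusted p under 0.05 in limma's test on log2(FPKM + 1). Over all 10005 tested genes 40.6% rose and 36.9% fell (77.5% either way), so changes of either direction were common in this comparison, and the TRIM shares were 33.3% and 45.5%. The median log2 change was -0.07 over the TRIM genes and 0.03 over all tested genes. The groups did not overlap for 11 TRIM genes that were higher and 15 that were lower in Gsdmd-/- samples, beside 41.2% and 38.3% of all tested genes. Larger changes, of at least 0.5 on the log2 scale, were seen for 5 TRIM genes that fell and 1 that rose, beside 15.2% and 13.2% of all tested genes.

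These counts depend on the scale. Rescaling each sample to TPM, a fixed total per library, gave all genes a median log2 change of -0.17, and 4 TRIM genes then rose and 20 fell, beside 25% and 51% of all genes (76% either way). Of the TRIM calls, 42.3% were rises as deposited and 16.7% in TPM, and of the calls over all genes 52.4% and 32.9%, so the share fell with this rescaling in both. Log2 changes in these libraries also followed transcript length and GC content, with a smooth trend that held 50.7% of their variance over 9852 genes. With this trend removed, 10 TRIM genes rose and 10 fell, beside 30% and 31.3% of all genes (61.4% either way). Trim56, Trim30d, Trim30a, Trim33, Trim23, Trim21, Trim34a, Trim14 and Trim35 fell, and Trim12a, Trim28, Trim30b and Trim17 rose, both as deposited and under each of 4 other scalings (TPM, quantile normalization, median ratio scaling and removal of the trend).

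**Figure D2:**
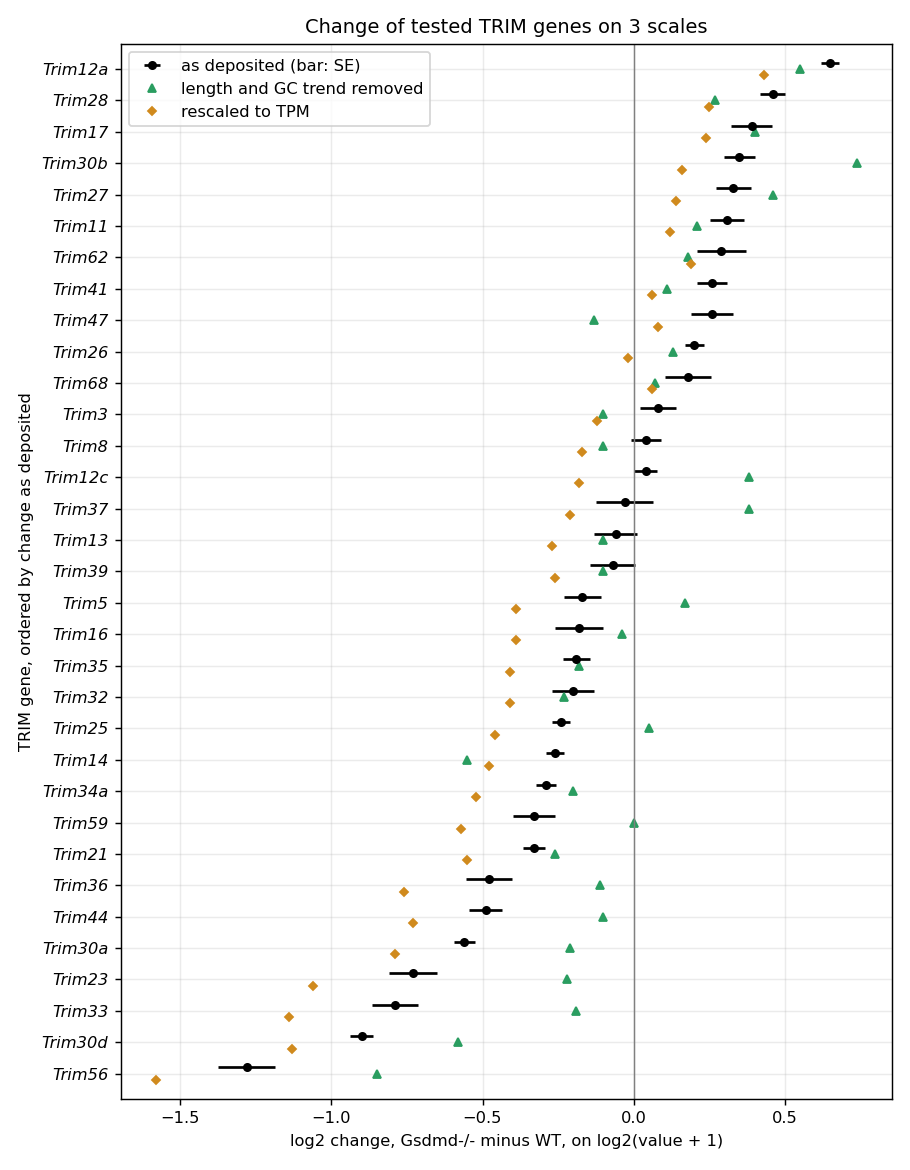
Log2 change (Gsdmd-/- minus WT) of the 33 tested TRIM genes as deposited (black circles, bar: SE), with the length and GC trend removed (green triangles) and in TPM (orange diamonds). Trim56 lies lowest at -1.28 and Trim12a highest at 0.65 as deposited, and of the 5 large falls those of Trim33, Trim30a and Trim23 lie between -0.22 and -0.19 once the trend is removed.

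The genes nearest to viral restriction lie side by side in an array on chromosome 7 (104218795 to 104507853 in GRCm38.p6) that held 9 genes of the tables, in the order Trim6, Trim34a, Trim5, Trim12a, Trim34b, Trim12c, Trim30b, Trim30a and Trim30d. Trim5, Trim12a and Trim12c are the mouse relatives of primate TRIM5, which binds incoming retroviral capsids, and the Trim30 genes are a rodent branch. The RefSeq promoters of 6 of these genes, spanning 250 bases before to 50 after the annotated start, hold the core of the interferon response element, which is GAAA, any 2 bases and GAAA, read here as TTTC, any 2 bases and TTTC where it lies on the other strand. The stretches around it are shown because copies with the same or nearly the same element changed by different amounts. Capitals mark the match, and each is printed 5′ to 3′ on the strand of the gene, from RefSeq GRCm38.p6.
Trim34a (chr7:104244447-104244496, plus strand): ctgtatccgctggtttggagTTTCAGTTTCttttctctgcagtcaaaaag
Trim5 (chr7:104288126-104288175, minus strand): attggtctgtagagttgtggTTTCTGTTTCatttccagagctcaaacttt
Trim12a (chr7:104315456-104315505, minus strand): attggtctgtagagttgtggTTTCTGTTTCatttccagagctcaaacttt
Trim12c (chr7:104353349-104353398, minus strand): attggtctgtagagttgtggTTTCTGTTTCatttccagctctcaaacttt
Trim30a (chr7:104465200-104465249, minus strand): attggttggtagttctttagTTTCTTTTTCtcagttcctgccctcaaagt
Trim30d (chr7:104507861-104507910, minus strand): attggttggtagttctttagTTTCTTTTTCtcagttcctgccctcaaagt

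The stretch of 50 bases was the same in Trim30a and Trim30d and the same in Trim5 and Trim12a, and that of Trim12c differed from Trim12a at 2 of 50 bases. Distances are counted from the start that each promoter was cut around, which need not be the outermost end of the gene in RefSeq. By this count the match began 36 bases upstream of the start in Trim30a, 41 upstream in Trim30d, 49 upstream in Trim5 and 29 upstream in Trim12c. It began 10 downstream in Trim12a and in Trim34a. The printed stretch of Trim5 lies inside the RefSeq span of the gene (104263386 to 104288254). Trim30a has a further annotated start with a match 2 bases downstream of it. A match is a description of letters and not a binding site.

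Outside the array, the same core stands in the promoters of Trim21, 13 bases downstream of that promoter's start, and of Trim26, 160.0 bases upstream of its own. In both, overlapping matches run together.
Trim21 (chr7:102565434-102565489, minus strand): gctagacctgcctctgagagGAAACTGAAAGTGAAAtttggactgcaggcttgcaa
Trim26 (chr17:36836966-36837021, plus strand): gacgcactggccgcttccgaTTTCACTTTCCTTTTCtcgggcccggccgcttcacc

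RefSeq promoters were matched by gene ID for 44 of the 58 TRIM genes and for 24 of the 33 tested ones. The core was found in 8 of those 24, beside 4.45% of the 8113 tested genes with a promoter and 3.44% of all 32851 promoters. It was present in 7 of the 9 TRIM genes with a mean of at least 20 FPKM that had a promoter, and in 1 of 15 with a lower mean. The share with the core among all genes of such levels was not counted, so this split has no matched background. Trim30a, Trim30d, Trim12a, Trim12c, Trim5 and Trim34a are neighbours in the array, several with the same or nearly the same stretch. Each was counted as a separate gene. Of these 8 carriers, Trim12a and Trim26 rose, Trim30a, Trim30d, Trim21, Trim34a and Trim5 fell, and Trim12c did not pass the test as deposited. Among TRIM genes that were not tested, Trim2 also held the core. The STAT element TTCNNNGAA was found in 0 of the 24 tested TRIM promoters, beside 8.23% of tested genes, and so overlapped none of the matches printed above.

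Within the array the Trim30 copies moved apart. Trim30a, which in mouse macrophages limits Toll-like receptor signalling by degrading TAB2 and TAB3, had 144, 139 and 152 FPKM in Gsdmd-/- samples, against 217, 210.0 and 217 FPKM in WT samples. All Gsdmd-/- samples lay below all WT samples. Its log2 change was -0.56 (SE 0.0346, limma adjusted p = 3.34e-08), or -0.21 after removal of the length and GC trend (adjusted p = 3.67e-05). Trim30d, its neighbour, had 56.6, 53.5 and 58.3 FPKM in Gsdmd-/- samples, against 109, 104 and 104 FPKM in WT samples. The groups were far apart, with Gsdmd-/- at 0.531 of the WT level. The log2 change of Trim30d was -0.90 (SE 0.0372, adjusted p = 2.29e-09), or -0.58 after removal of the trend.

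Trim30b, the third copy, went the other way. It had 11.04, 10.6 and 10.2 FPKM in Gsdmd-/- samples, against 7.96, 7.93 and 8.36 FPKM in WT samples, with a log2 change of 0.35 (limma adjusted p = 5.70e-05), or 0.74 after removal of the trend. The ratio of Trim30b to Trim30d within a sample, which dividing a whole library by 1 factor cannot move, was 0.174 to 0.199 in Gsdmd-/- samples and 0.0731 to 0.0803 in WT samples. The summed level of the 3 Trim30 genes was 204 to 221 FPKM in Gsdmd-/- and 322 to 334 FPKM in WT samples.

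The Trim12 copies also differed. Trim12a had 78.6, 77.7 and 78.2 FPKM in Gsdmd-/- samples, against 49.1, 49.3 and 50.3 FPKM in WT samples. Its log2 change of 0.65 (SE 0.0304, limma adjusted p = 4.73e-09) was the largest rise of the family as deposited, and it was 0.55 after removal of the trend and 0.43 in TPM. Trim12c, 2 genes further along, had 27.0, 26.8 and 26.8 FPKM in Gsdmd-/- samples, against 27.0, 25.5 and 26.0 FPKM in WT samples. The groups overlapped, and the log2 change of 0.04 did not pass (adjusted p = 0.366). It was 0.38 with the trend removed (adjusted p = 2.84e-06) and -0.18 in TPM (adjusted p = 0.00228), so its direction differed between scales. The ratio of Trim12a to Trim12c was 2.90 to 2.92 in Gsdmd-/- samples and 1.82 to 1.94 in WT samples.

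Trim34a, related to a human restriction factor of lentiviruses, had 51.1, 52.1 and 50.5 FPKM in Gsdmd-/- samples, against 63.1, 64.2 and 61.8 FPKM in WT samples. The fall, with no overlap of the groups, was 0.29 on the log2 scale (SE 0.0324, limma adjusted p = 4.68e-06). Trim5 was low, at 3.58 ± 0.129 FPKM in Gsdmd-/- and 4.16 ± 0.108 FPKM in WT samples (SD, n = 3 each). Its log2 change was -0.17 (adjusted p = 0.0201) but 0.17 with the trend removed (adjusted p = 0.0241), and it did not pass without Gsdmd-/- replicate 2 (0.0503) or without WT replicate 1 (0.0678). Trim6 and Trim34b, which were not tested, stayed at no more than 0.550 and 0.280 FPKM in any sample.

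**Figure D3:**
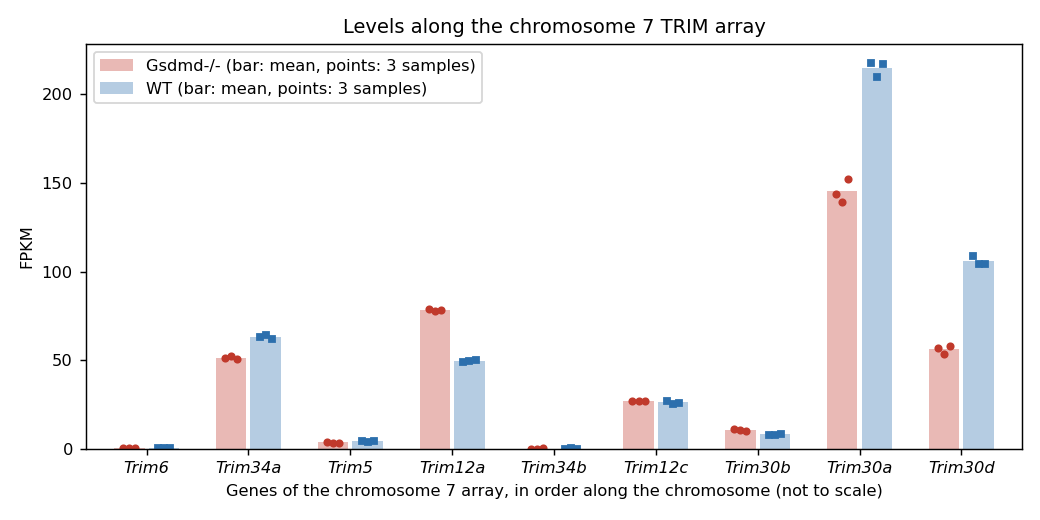
Levels in FPKM of the 9 TRIM genes of the chromosome 7 array in their order along the chromosome, with bars for group means and points for the 3 Gsdmd-/- (red) and 3 WT (blue) samples. Trim30a, Trim30d and Trim34a are lower and Trim12a and Trim30b higher in Gsdmd-/- samples, while Trim12c overlaps between groups.

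Copies in this array share sequence, and the way the authors divided shared fragments is not known, so single values are uncertain to that extent. Of all stretches of 100 bases in the longest transcript, Trim30a shared 4.79% with Trim30d, Trim30d 5.53% with Trim30a, and Trim30b 0% with any other gene. Trim12a shared 8.38% with Trim5, Trim12c 7.64% with other genes and 0.522% with Trim12a. Trim5, far lower in level than Trim12a and Trim12c, shared 12.7% with other genes, with 7.26% in Trim12c and 3.37% in Trim12a. The value of Trim5 is therefore uncertain in particular. Trim34a shared 22.6% with Trim34b and 19.3% with the antisense gene Gm47248.

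A further set held TRIM genes listed as promoting innate immune sensing or the signalling below it. It is broader than sensing of viral RNA or DNA, since it includes Trim62 and Trim8. Of its 11 genes 9 were tested, of which 6 fell, 2 rose and 1 did not pass, with a median log2 change of -0.24. Over all tested genes 36.9% fell and 40.6% rose, with a median of 0.03. With the length and GC trend removed 5 fell and 1 rose, beside 31.3% and 30% of all genes, and in TPM 7 fell and 0 rose, beside 51% and 25%. The set was not tested against other genes. Trim56, which ubiquitinates cGAS and STING and so acts in the DNA sensing pathway, showed the largest fall of the family as deposited. It had 3.41, 3.21 and 4.59 FPKM in Gsdmd-/- samples, against 10.5, 9.97 and 10.7 FPKM in WT samples. The highest Gsdmd-/- sample, replicate 3, was still less than the lowest WT sample. The log2 change was -1.28 (SE 0.0942, limma adjusted p = 2.68e-07), which was -0.85 with the trend removed and -1.40 without Gsdmd-/- replicate 3. Trim56 has a long transcript, of 9279 bases.

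Trim21, the cytosolic receptor for antibodies on incoming virus, had 83.3, 79.6 and 87.6 FPKM in Gsdmd-/- samples, against 105, 103 and 107 FPKM in WT samples. This was a log2 change of -0.33 (SE 0.0369, limma adjusted p = 5.87e-06), which became -0.26 once the trend was taken out. Trim25, which attaches ubiquitin to the RNA sensor RIG-I, had 82.4, 81.0 and 84.3 FPKM in Gsdmd-/- samples, against 98.9, 97.0 and 97.4 FPKM in WT samples. Its log2 change was -0.24 as deposited (adjusted p = 1.13e-05) but 0.05 with the trend removed (adjusted p = 0.0675). Trim14, which lacks a RING and serves as an adaptor at the mitochondrial protein MAVS, had 83.4, 84.5 and 86.5 FPKM in Gsdmd-/- samples, against 102, 103 and 100.2 FPKM in WT samples. Its log2 change was -0.26 (adjusted p = 6.06e-06), and it was larger, -0.55, with the trend removed. Trim14 shares 1356 exon bases on the opposite strand with Nans, an enzyme gene of sialic acid synthesis that rose by 0.61 on the log2 scale, and whether counting used strand is not known.

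Trim23, whose C-terminal part is a GTPase and which modifies NEMO, a regulatory protein of the NF-kB pathway, was near the detection filter in Gsdmd-/- samples, at 1.17, 0.940 and 1.08 FPKM, against 2.62, 2.17 and 2.46 FPKM in WT samples. The log2 change was -0.73 on the log2(FPKM + 1) scale (SE 0.0781, limma adjusted p = 3.75e-06), -1.11 with a pseudocount of 0.1 and -0.22 with the trend removed (adjusted p = 0.0193). Trim32, an NHL-domain ligase reported to modify STING, was at 2.34 ± 0.0404 FPKM in Gsdmd-/- and 2.84 ± 0.266 FPKM in WT samples, and its log2 change of -0.20 (adjusted p = 0.0216) did not pass without WT replicate 2 (0.0941) or without Gsdmd-/- replicate 2 (0.0556).

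Both rises in this set were small and depended on the scale. Trim26, reported to act on TBK1 and IRF3, had 69.3, 69.5 and 69.3 FPKM in Gsdmd-/- samples, against 61.5, 58.9 and 60.02 FPKM in WT samples. The groups did not overlap, and the log2 change was 0.20 (SE 0.0312, limma adjusted p = 7.99e-05), 0.13 with the trend removed and -0.02 in TPM (adjusted p = 0.691). Trim62, which activates CARD9, was at 1.91 ± 0.149 FPKM in Gsdmd-/- and 1.38 ± 0.197 FPKM in WT samples, with a log2 change of 0.29 (adjusted p = 0.00611), and 0.18 once the trend was taken out (adjusted p = 0.0605). Trim8, an activator of the kinase TAK1, was at 11.6 ± 0.359 and 11.2 ± 0.465 FPKM in Gsdmd-/- and WT samples (adjusted p = 0.471). Trim15 and Trim65, a ligase for the RNA sensor MDA5, were not tested, with highest values of 0.260 and 0.940 FPKM.

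Among TRIM genes known mainly as brakes on these pathways, 6 of 10 were tested, of which 3 rose, 1 fell and 2 did not pass, with a median log2 change of 0.06, so the share that rose was near the 40.6% of all tested genes (36.9% fell). With the trend removed 2 rose and 0 fell, beside 30% and 31.3% of all genes, and in TPM 0 rose and 3 fell, beside 25% and 51%. No difference between these genes and the activators was tested. Trim27, which limits TBK1 and NOD2, was at 7.36 ± 0.153 FPKM in Gsdmd-/- and 5.66 ± 0.314 FPKM in WT samples, a log2 change of 0.33 (limma adjusted p = 0.000229). The change was 0.46 with the trend removed, whereas in TPM it was 0.14 and missed the threshold (adjusted p = 0.0683). Trim11, which in human cells limits AIM2, was at 11.8 ± 0.130 FPKM in Gsdmd-/- and 9.29 ± 0.666 FPKM in WT samples (log2 change 0.31, adjusted p = 0.000272, and in TPM 0.12, adjusted p = 0.115). Trim68 was at 1.60 ± 0.195 and 1.29 ± 0.0569 FPKM in Gsdmd-/- and WT samples, and its log2 change of 0.18 (adjusted p = 0.0457) did not pass when any of 5 of the 6 samples was left out (adjusted p from 0.0604 to 0.171). Trim59 was at 1.89 ± 0.0808 FPKM in Gsdmd-/- and 2.64 ± 0.170 FPKM in WT samples, with a log2 change of -0.33 (adjusted p = 0.000783) but no call once the trend was taken out (adjusted p = 0.988). Trim13, a ligase of the endoplasmic reticulum, was at 4.60 ± 0.472 FPKM in Gsdmd-/- and 4.82 ± 0.103 FPKM in WT samples, and Trim39 at 2.61 ± 0.252 FPKM in Gsdmd-/- and 2.77 ± 0.188 FPKM in WT samples. Trim13 differed by -0.06 on the log2 scale (adjusted p = 0.442) and Trim39 by -0.07 (adjusted p = 0.440), and both passed downward in TPM (-0.27 and -0.26). Trim38 was listed at 0 in the 3 WT samples and at no more than 0.0300 FPKM in Gsdmd-/- samples.

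The nuclear TRIM proteins listed as chromatin regulators carry a PHD finger and a bromodomain, and the tested pair moved in opposite directions. Trim28, the co-repressor that KRAB zinc finger proteins bring to DNA, had 38.3, 38.4 and 35.7 FPKM in Gsdmd-/- samples, against 27.1, 27.8 and 26.1 FPKM in WT samples. All Gsdmd-/- samples were above all WT samples, with a log2 change of 0.46 (SE 0.0422, limma adjusted p = 9.93e-07), 0.27 with the trend removed and 0.25 in TPM. Trim33, which in mouse macrophages takes part in shutting off Ifnb1 late after stimulation, had 1.01, 0.830 and 1.06 FPKM in Gsdmd-/- samples, against 2.2, 2.56 and 2.43 FPKM in WT samples. That is 0.403 of the WT level, with a log2 change of -0.79 (SE 0.0770, adjusted p = 1.62e-06) and -1.23 with a pseudocount of 0.1. The transcript of Trim33 has 8875 bases, and once length and GC were taken into account its change was -0.19 (adjusted p = 0.0499, and 0.0724 with a replicate block added). Trim24 was not tested, at 0.680 to 0.890 FPKM in Gsdmd-/- and 0.700 to 1.13 FPKM in WT samples, and Trim66 did not exceed 0.01 FPKM.

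The remaining tested genes have roles in cell structure or turnover or are less studied. Trim44, which lacks a RING, was at 6.40 ± 0.118 FPKM in Gsdmd-/- and 9.40 ± 0.450 FPKM in WT samples (log2 change -0.49, limma adjusted p = 4.95e-06). Trim36, a microtubule-binding ligase, was at 1.10 ± 0.158 FPKM in Gsdmd-/- and 1.92 ± 0.0643 FPKM in WT samples (log2 change -0.48, adjusted p = 9.98e-05). Neither passed with the trend removed (-0.10 and -0.11, adjusted p = 0.124 and 0.193). Trim35 was at 15.7 ± 0.580 and 18.0 ± 0.300 FPKM in Gsdmd-/- and WT samples, with a log2 change of -0.19 (adjusted p = 0.0018), or -0.18 after removal of the trend. Trim16, which takes part in the removal of damaged lysosomes, was at 1.17 ± 0.137 FPKM in Gsdmd-/- and 1.46 ± 0.146 FPKM in WT samples. Its log2 change of -0.18 did not pass (adjusted p = 0.0534), but passed without Gsdmd-/- replicate 2 (0.0281) or without WT replicate 1 (0.0332).

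Trim17 was at 4.60 ± 0.351 FPKM in Gsdmd-/- and 3.27 ± 0.133 FPKM in WT samples (log2 change 0.39, limma adjusted p = 0.000196). Its value is uncertain, since 17.1% of its stretches of 100 bases also belong to the histone gene Hist3h2a, which was at 70.0 ± 3.42 FPKM in Gsdmd-/- and 59.1 ± 3.14 FPKM in WT samples. Trim41 was at 12.5 ± 0.595 and 10.3 ± 0.116 FPKM in Gsdmd-/- and WT samples (log2 change 0.26, adjusted p = 0.000479) and Trim47 at 6.00 ± 0.241 FPKM in Gsdmd-/- and 4.84 ± 0.490 FPKM in WT samples (0.26, adjusted p = 0.00457). With the trend removed the changes were 0.11 and -0.13, neither past the threshold. Trim37, a regulator of centriole number, had overlapping groups, with 2.29 ± 0.0416 and 2.37 ± 0.456 FPKM in Gsdmd-/- and WT samples (adjusted p = 0.804). Trim3, a filamin and NHL-domain protein, was at 7.66 ± 0.473 FPKM in Gsdmd-/- and 7.18 ± 0.310 FPKM in WT samples (adjusted p = 0.230).

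Of the 25 TRIM genes below the filter, the highest single value was 1.13 FPKM, 12 TRIM genes had a mean under 0.1 FPKM, and 11 were listed at 0 in at least 1 sample. These include the muscle genes Trim55, Trim63 and Trim72, the neuronal genes Trim9 and Trim67, the red-cell genes Trim10 and Trim58, the embryonic genes Trim43a, Trim43b and Trim43c, and Trim7, Trim29, Trim45, Trim60, Trim69 and Trim80, none of them above 0.520 FPKM in any sample. Trim72, known in muscle for resealing torn membranes, was at 0.200 to 0.240 FPKM in Gsdmd-/- and 0.140 to 0.340 FPKM in WT samples. The groups did not overlap for 4 of these 25 genes, 2 higher and 2 lower in Gsdmd-/- samples, beside 10.6% and 6.94% of all 7062 genes below the filter. Trim46, a microtubule organiser of axons, had 0.9, 1.0 and 1.0 FPKM in Gsdmd-/- samples, against 0.330, 0.480 and 0.530 FPKM in WT samples, and Trim2, a filamin and NHL-domain ligase, had 0.3, 0.33 and 0.5 FPKM in Gsdmd-/- samples, against 0.680, 0.600 and 0.760 FPKM in WT samples. Trim6 was lower, at 0.200 to 0.350 and 0.370 to 0.550 FPKM in Gsdmd-/- and WT samples, and Trim45 higher, at 0.320 to 0.440 FPKM in Gsdmd-/- and 0.230 to 0.300 FPKM in WT samples. With every gene above 0 in the test, Trim46 rose (log2 change 0.45, limma adjusted p = 0.000904), Trim2 and Trim6 fell (-0.29 and -0.20, adjusted p = 0.0117 and 0.0499) and Trim45 did not pass (adjusted p = 0.147), where 8.43% of all genes below the filter rose and 4.93% fell. Trim46 shares 239 exon bases with Krtcap2 on the opposite strand.

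The changes varied with transcript length and base composition. Over the 33 tested TRIM genes the log2 change had a Spearman correlation of -0.284 with transcript length and 0.548 with GC content, against -0.652 and 0.497 over 9852 genes, where points share the same 6 libraries. The median transcript of the tested TRIM genes had 3580 bases and a GC content of 49.9%, against 3020 bases and 49.9% over all tested genes. Of the 26 TRIM calls as deposited, 17 passed in the same direction with the trend removed, 7 higher and 10 lower. Trim5, Trim12c and Trim37 passed upward only with the trend removed, and Trim5 passed downward as deposited.

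**Figure D4:**
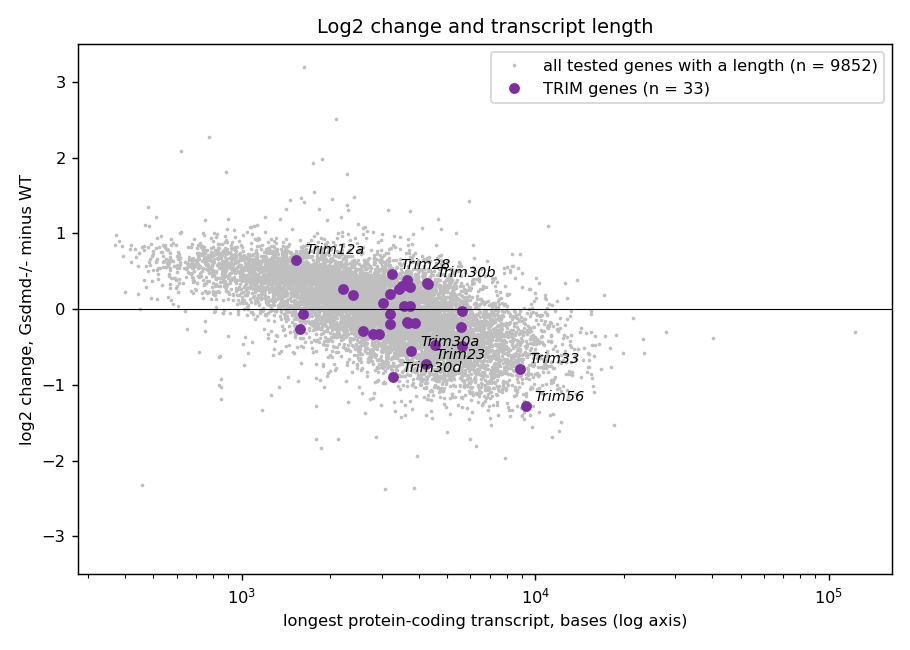
Log2 change (Gsdmd-/- minus WT) against the length of the longest protein-coding transcript in bases (log axis), in grey for 9852 tested genes and in purple for the 33 tested TRIM genes. Long transcripts lie lower as a whole, and Trim56 and Trim33, with 9279 and 8875 bases, lie at -1.28 and -0.79, while Trim12a, with 1531 bases, lies at 0.65.

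Of TRIM proteins whose genes carry other names, 3 of 4 were tested, of which 2 fell and 0 rose, beside 36.9% and 40.6% of all tested genes. With the trend removed 2 fell and 0 rose, beside 31.3% and 30%, and in TPM 3 fell and 0 rose, beside 51% and 25%. Mid1, a microtubule-associated ligase, was at 112 ± 0.850 FPKM in Gsdmd-/- and 212 ± 4.78 FPKM in WT samples (log2 change -0.91, SE 0.0279, limma adjusted p = 5.04e-10), and the change was also -0.91 with the trend removed. Mefv, which encodes the inflammasome sensor pyrin, was at 1.12 ± 0.0153 and 1.52 ± 0.111 FPKM in Gsdmd-/- and WT samples (-0.25, adjusted p = 0.0068). Pml, the scaffold of PML nuclear bodies, was at 104 ± 0.795 FPKM in Gsdmd-/- and 108 ± 0.841 FPKM in WT samples, a log2 change of -0.05 that did not pass (adjusted p = 0.127). The change of Pml passed downward in TPM (-0.27, limma adjusted p = 9.88e-07) and after quantile normalization (-0.18, adjusted p = 6.11e-05), but not with the trend removed (adjusted p = 0.99). Mid2 was not tested.

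Of 17 tested targets and partners of TRIM proteins in sensing, 5 rose and 10 fell, beside 40.6% and 36.9% of all tested genes, with a median log2 change of -0.19. Removal of the trend left 7 that rose and 5 that fell, beside 30% and 31.3%, and in TPM 3 rose and 12 fell, beside 25% and 51%. Tab2, a target of Trim30a, fell by 0.85 on the log2 scale to 33.0 ± 1.93 FPKM in Gsdmd-/- samples, against 60.2 ± 1.45 FPKM in WT samples (limma adjusted p = 8.62e-09). Ifih1, which encodes the RNA sensor MDA5, was at 160.0 ± 8.27 and 239 ± 4.66 FPKM in Gsdmd-/- and WT samples (-0.58, and -0.10 with the trend removed). Irf7, a transcription factor of interferon genes, was at 1050 ± 21.1 FPKM in Gsdmd-/- and 743 ± 22.8 FPKM in WT samples (0.50, and 0.23 with the trend removed). Of 14 genes of ubiquitin and its conjugating enzymes, 8 rose and 4 fell, beside 40.6% and 36.9% of all tested genes. Removal of the trend left 8 that rose and 5 that fell, beside 30% and 31.3%, and in TPM the balance turned to 5 that rose and 7 that fell, beside 25% and 51%. Rps27a, a ubiquitin fusion gene, was at 505 ± 14.3 FPKM in Gsdmd-/- and 357 ± 6.52 FPKM in WT samples (0.50, limma adjusted p = 1.76e-08, but 0.05 with the trend removed). The conjugating enzyme gene Ube2d3 had a log2 change of -0.50, or -0.11 with the trend removed.

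Of 9 co-repressor genes that work with TRIM28, 8 fell and 1 rose as deposited, beside 36.9% and 40.6% of all tested genes, with a median log2 change of -0.32, while Trim28 itself rose. In TPM 8 fell and 0 rose, beside 51% and 25% of all genes. With the trend removed 1 fell and 1 rose, beside 31.3% and 30%, and the median was -0.05. Chd4, a nucleosome remodeller, was at 27.2 ± 1.40 FPKM in Gsdmd-/- and 34.3 ± 1.26 FPKM in WT samples (log2 change -0.32, limma adjusted p = 4.06e-05), Atf7ip, a partner of the histone methyltransferase SETDB1, had a log2 change of -0.37 and the deacetylase gene Hdac1 one of 0.20. With the trend removed none of these 3 passed (adjusted p = 0.258, 0.149 and 0.259).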

How the data were processed

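The deposited tables hold 1 value per gene and sample with no stated unit. They were read as FPKM made by the authors, since sums differ between samples (476271 to 565388) and low values step with transcript length. The submitters' processing notes name Bowtie2 2.2.5 and GRCm38.p6. Quantifier, annotation and use of strand: not given in the sources used here. Depth was estimated from those steps. In a chi-square test on the implied fragments, the 6 pairs within a group gave 1.60 to 2.28 per degree of freedom, so no library was counted as a repeat. Nothing in the labels says that samples came from different animals. The p-values therefore reflect only how these samples vary, which may be technical.

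Genes with at least 1 FPKM in at least 3 samples were tested on log2(FPKM + 1) with limma 3.58.1 in R 4.3.3 (trend, robust), two-sided, with Benjamini-Hochberg adjustment over 10005 genes. This scale understates changes of low genes. The trend was fitted per sample with splines on the length and GC of the longest GENCODE M21 protein-coding transcript. The method was tested on simulated data with independent normal noise, without a trend or with one in transcript length alone. Removal of a trend with GC was not tested in this way. Every TRIM gene is named, with the value in every sample for those called with a log2 change of at least 0.5 or with a mean of at least 20 FPKM, and of other lists up to 3 genes with the smallest p. One such gene is not reported here. Members and lists were chosen with earlier results of these data known. In 25 cases a symbol turned into a date was restored by gene ID.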

Additional observations from a re-analysis of the deposited data

How the results depend on the processing

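Of 558 recomputed values of single TRIM genes, 493 kept their direction and side of the threshold, 33 lost the call, 11 gained one and 21 turned direction. In TPM the directions of Trim12c (-0.18), Trim8 (-0.17), Trim3 (-0.12) and Trim26 (-0.02) turned. After quantile normalization those of Trim13 (0.03), Trim37 (0.03) and Trim39 (0.0 after rounding) turned. With the length and GC trend removed, with or without a replicate block, Trim25 (0.05), Trim3 (-0.10), Trim37 (0.38), Trim47 (-0.13), Trim5 (0.17) and Trim8 (-0.10) turned, and Trim37 was 0.01 without WT replicate 2 and 0.05 without WT replicate 3. The cause was not tested. In TPM 4 TRIM genes rose, and 2498 of all genes rose. With the trend removed and the replicate block 9 fell. The median TRIM log2 change was -0.27 in TPM, 0.0 after quantile normalization and -0.01 with no filter. Leaving out 1 sample gave 10 or 11 rises, 14 or 15 falls and medians of -0.14 to -0.05. Gsdmd kept its fall in every setting run. With the replicate block alone 10 TRIM genes rose and 15 fell, and Trim68 lost its call. Same-numbered samples had deviations correlated at -0.0818, 0.132 and 0.0143, so the numbers were not taken to pair samples. Low values limit the 25 untested genes and Trim23, Trim33 and Trim36, and the changes of these 3 were larger with a pseudocount of 0.1.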
